A study of Mus musculus with 3 samples.

Results

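The genes examined here encode the machinery that carries a newly made secretory protein into the endoplasmic reticulum (ER) and on to the Golgi apparatus. They were taken from the single-cell tables by symbol: every gene starting with Sec61, Sec62, Sec63, Ssr, Spcs, Srp and a digit, Tmed, Cop and a, b, e, g or z (the Cops genes of the COP9 signalosome left out), Sec13, Sec22, Sec23, Sec24, Sec31 or Sar1, with at least 20 unique molecular identifiers (UMIs, each standing for 1 captured transcript) over the 3 libraries. Of 17226 gene symbols 56 matched, and 54 were kept. *Srp54b* and *Sec31b*, with 11 and 6 UMIs over the libraries, fell under the minimum. Of the 54 genes, 53 fell into 8 groups by role, and the remaining 1, *Ssrp1*, encodes a chromatin protein of the FACT complex that shares only its first letters with the *Ssr* genes. It is counted as found by the rule and kept out of the role groups.

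A protein bound for secretion starts with a signal peptide, which the signal recognition particle (SRP) binds as it leaves the ribosome. The ribosome is then docked at the Sec61 channel of the ER membrane, where the translocon-associated protein (TRAP) complex helps the chain through and signal peptidase removes the signal peptide. COPII vesicles, built on the GTPase Sar1 with the Sec23, Sec24, Sec13 and Sec31 coat subunits, carry cargo from ER exit sites to the Golgi, COPI vesicles return proteins to the ER, p24 proteins of the Tmed family ride in both as cargo receptors, and the SNARE protein Sec22b takes part in vesicle fusion. Islet endocrine cells send their peptide hormones through this route, and in beta cells the bulk of the load is preproinsulin.

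The study inactivated *Taf4*, which encodes a subunit of the general transcription factor TFIID, in insulin-producing cells of adult C57/Bl6 mice that carried floxed *Taf4* alleles and a tamoxifen-inducible Cre-ERT2 under an insulin promoter. By staining, the paper reports that Taf4 was kept in *Gcg*-expressing cells and lost from beta cells. Its lineage tracing, at a later time than these libraries, assigned a beta cell origin to most *Gcg*-expressing cells inside mutant islets. Whether the cells classed here as alpha or delta carried the deletion was not tested in these libraries. The 3 conditions were sampled by droplet 3′ RNA sequencing, with 1 library each, from 300 islets that were cultured for a day, dissociated and sorted for live cells. The WT library came from 1 mouse labelled male and wild type, and the labels do not say whether that mouse carried the Cre or received tamoxifen. The paper describes its *Taf4*+/+ controls as Cre carriers that were given tamoxifen, but its single-cell methods call this mouse only WT. The mutant libraries, labelled TAF4 KO, came from islets pooled from 2 male mice given tamoxifen on 3 days, taken at 1 week or at 5 weeks from the loss of *Taf4*.

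The libraries held 12000 (WT), 2295 (1 week) and 11229 (5 weeks) cell barcodes and 19472212, 23131247 and 39408284 UMIs. Between libraries 2 to 33 barcodes were shared. Cells were classed by the share of their UMIs from 1 hormone: beta for *Ins2* at 20% or more, alpha for *Gcg* at 15% and delta for *Sst* at 5%. Over all barcodes the median depth was 1396 UMIs in WT, 2759 at 1 week and 2467 at 5 weeks. In the 1-week library the limits were 5%, 8% and 1.5%, applied only to cells of at least 5000 UMIs, which 880 of its 2295 barcodes reached. This gave 8405 beta, 2814 alpha and 619 delta cells in WT, 562, 172 and 37 at 1 week, and 5924, 3082 and 1239 at 5 weeks, with median depths in beta cells of 1664, 24798 and 3987.5 UMIs. The summed level of 10 beta cell markers in beta cells was 88477 CPM (UMIs per 1000000 UMIs of the class) in WT, 35297 CPM at 1 week and 60699 CPM at 5 weeks. In the same order it was 56134, 45991 and 41130 CPM in delta cells and 7961, 1347 and 6855 CPM in alpha cells. At 1 week this list was thus higher in delta than in beta cells. In alpha cells 10 alpha markers summed to 39205, 8097 and 17010 CPM. In delta cells 7 delta markers summed to 8110, 7537 and 7860 CPM. The WT library went against its label of a male mouse: *Xist*, transcribed from the inactive X chromosome of female cells, had 17357 UMIs and the Y-linked *Ddx3y* had 0, against 17 and 1488 at 1 week and 11 and 1349 at 5 weeks. *Taf4* itself was at 4.76 CPM (78 UMIs) in WT beta cells, 7.53 CPM (113) at 1 week and 3.64 CPM (108) at 5 weeks, but the exons deleted are not given in the sources used here, and a 3′ tag outside them cannot check the genotype.

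With 1 library per condition no difference below has a replicate check. Levels are UMIs summed over the cells of a class, in CPM, with exact Poisson 95% intervals, and ratios are on the log2 scale with exact conditional 95% intervals. All intervals cover counting error only. Because each UMI stands for 1 transcript tagged at its 3′ end, levels of different genes are set side by side without scaling to length, although capture may differ between genes. Mouse, day, culture, library depth and genotype cannot be told apart.

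In WT beta cells the 54 genes together made up 6301 CPM, against 6791 CPM in alpha and 7994 CPM in delta cells. The levels spread over 3 orders of magnitude, with the small subunits of membrane complexes at the top. *Ssr4*, the TRAP delta subunit, led with 951 CPM (937 to 967; 15595 UMIs), followed by *Sec61b*, the beta subunit of the channel, at 773 CPM (759 to 786), and *Sec61g*, its gamma subunit, at 556 CPM (544 to 567). The pore-forming alpha subunit *Sec61a1* was at 52.8 CPM (49.3 to 56.4), and its paralogue *Sec61a2* was the lowest translocon member at 7.38 CPM (6.13 to 8.82). *Sec62* and *Sec63*, which help post-translational translocation, were at 99.4 and 41.5 CPM. By role the translocon summed to 1529 CPM, TRAP to 1359 CPM, the p24 family to 891.8 CPM, signal peptidase to 847 CPM and the SRP to 678.5 CPM.

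Within the SRP the Alu-domain proteins *Srp9* and *Srp14*, which pause translation, were the most abundant in WT beta cells, at 294 CPM (285 to 302) and 233 CPM (226 to 241). *Srp72* followed at 75.9 CPM, *Srp19* at 43.0 CPM and *Srp68* at 18.4 CPM. *Srp54a*, one copy of the gene for the GTPase that binds the signal peptide, was at 13.5 CPM, and its copy *Srp54c* at 0.732 CPM from only 12 UMIs. The *Srp54* copies are near-identical, so how their reads were split between them is uncertain. Among signal peptidase subunits *Spcs1* was at 376 CPM (366 to 385), *Spcs2* at 361 CPM (352 to 371) and *Spcs3* at 110.2 CPM (105 to 115). The other TRAP subunits were lower than *Ssr4*: *Ssr2* was at 231 CPM, *Ssr3* at 94.2 CPM and *Ssr1* at 82.5 CPM.

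Among p24 genes of WT beta cells *Tmed3* was highest at 232 CPM (225 to 240), followed by *Tmed10* at 178 CPM, *Tmed2* at 160.1 CPM and *Tmed9* at 141 CPM. *Tmed11* was lowest at 1.71 CPM (1.135 to 2.47; 28 UMIs). This gene was at 67.1 CPM in the 232 WT cells in which acinar markers made up 5% or more of UMIs and at 1.83 CPM in the other 11768 WT cells. It had 0 UMIs in the 1-week library and 1 at 5 weeks. *Tmed6* was likewise at 115 CPM in those 232 cells and at 10.9 CPM in the rest. The summed level of the acinar marker list in beta cells was 4958 CPM in WT, 15.9 CPM at 1 week and 565 CPM at 5 weeks.

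The vesicle coats were less abundant at the RNA level. The COPI coat summed to 546.1 CPM in WT beta cells, from *Cope* at 247 CPM (240 to 255) down to *Copg2* at 8.05 CPM (6.74 to 9.55), and COPII to 356.9 CPM, from *Sar1b* at 101 CPM (96.1 to 106) down to *Sec23a* and *Sec24b*, both at 7.57 CPM (6.29 to 9.02). *Sec22b*, the ER to Golgi SNARE, was at 59.7 CPM (56.0 to 63.5), with its relatives *Sec22a* at 10.9 CPM and *Sec22c* at 1.89 CPM.

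Some of these genes are known targets of the unfolded protein response, in which the factors Xbp1 and Atf6 act through short promoter elements. The RefSeq promoter table (GRCm38.p6, the assembly of mm10; 250 bases before to 50 after each start) held 46 of the 54 genes. The element called UPRE, searched by its core TGACGTGG on both strands, stood in the promoters of 4 of the 46, against 0.714% of the 27025 symbols in the table. The stretches from 45 bases before to 15 after the start are shown for these 4 because they are the members in which the element was found, with its letters in capitals. In *Copb1* (chr7:114254666-114254725, minus strand) and *Copb2* (chr9:98563686-98563745, plus strand) it reads as the reverse complement, CCACGTCA, which opens with the same CCACG that ends ERSE. In *Sec23a* (chr12:59012003-59012062, minus strand) and *Sec24d* (chr3:123267451-123267510, plus strand) it reads forward.
Copb1: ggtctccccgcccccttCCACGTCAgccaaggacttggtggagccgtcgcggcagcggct
Copb2: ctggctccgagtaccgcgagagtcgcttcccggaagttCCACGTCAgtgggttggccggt
Sec23a: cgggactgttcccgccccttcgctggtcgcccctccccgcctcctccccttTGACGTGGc
Sec24d: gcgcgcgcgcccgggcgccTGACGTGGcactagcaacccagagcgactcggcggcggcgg

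All 4 encode coat subunits, *Copb1* and *Copb2* of COPI and *Sec23a* and *Sec24d* of COPII. The element started 28 bases before the annotated start of its window in *Copb1*, 7 before in *Copb2*, 26 before in *Sec24d* and 7 bases after it in *Sec23a*. The 46 genes had 50 windows between them. The start used for *Sec24d* lies within the gene, which begins at chr3:123264801. The ER stress element ERSE (CCAAT, 9 bases, CCACG) and its relative ERSE-II (ATTGG, 1 base, CCACG) were found in 0 of the 46, against 0.137% and 0.0444% of all symbols. The cyclic AMP response element TGACGTCA was found in 1, *Cope*, against 2.03% of all symbols. These are matches of letters in a window, not binding sites.

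Most of these genes differed by less than 2-fold between the WT classes. Of 51 members with at least 50 UMIs in WT beta and alpha cells together, 1 was at least 2-fold higher in beta and 4 at least 2-fold lower, where 4.7% of 8928 genes were higher and 23.0% lower. The median member ratio, beta over alpha, was −0.03 against −0.56 for all genes. *Spcs3* was at 110.2 CPM in beta and 45.7 CPM in alpha cells, with a log2 ratio of 1.27 (0.99 to 1.56). *Tmed3* was at 232 CPM in beta and 473 CPM in alpha cells, with a log2 ratio of −1.03 (−1.12 to −0.93), and *Sec23a* at 7.57 against 18.7 CPM, with a log2 ratio of −1.31 (−1.81 to −0.78). The other lower members were *Sec61a2* (−1.06) and *Tmed1* (−1.14).

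Against delta cells 0 of 51 members were 2-fold higher in WT beta cells and 7 lower, where 2.62% of 8505 genes were higher and 49.5% lower, with a median of −0.47 against −0.99 for all genes. *Sec23a* was at 7.57 CPM in beta and 38.8 CPM (17 UMIs) in delta cells, with a log2 ratio of −2.36 (−3.09 to −1.53). *Tmed1* was at 5.86 against 31.9 CPM, with a log2 ratio of −2.45 (−3.26 to −1.52), and *Tmed8* at 31.1 against 112 CPM, with a log2 ratio of −1.84 (−2.27 to −1.39). The other 4, *Sec22a*, *Tmed6*, *Sec61a2* and *Copz1*, had log2 ratios between −1.84 and −1.14. The transcripts called hormone transcripts here were *Ins1*, *Ins2*, *Iapp*, *Gcg*, *Sst*, *Ppy*, *Pyy* and *Ttr*, the last an alpha marker and not a hormone. Together they made up 68.0% of UMIs in WT beta cells, which lowers the CPM of other genes there. Acinar markers were at 4958, 10950 and 14845 CPM in WT beta, alpha and delta cells. The part of hormone transcripts and acinar RNA in these differences was not tested.

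In the 5-week library the transport genes of beta cells stood close to WT. The 54 genes summed to 6078 CPM, against 6301 CPM in WT. Of 53 members with at least 50 UMIs in both classes together, 1 was at least 2-fold higher and 2 at least 2-fold lower, where 7.72% of 10614 genes were higher and 4.81% lower. The median log2 ratio of the members was 0.06 against 0.18 over all genes, and 42 of the 53 (79.2%) were within 1.5-fold of WT against 66.7% of all genes. In the same classes the ER chaperone *Hspa5* (BiP) was at 373 and 1390 CPM and *Herpud1*, a component of ER-associated degradation, at 124 and 537 CPM, while *Xbp1* was at 92.2 and 81.2 CPM.

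**Figure D1:**
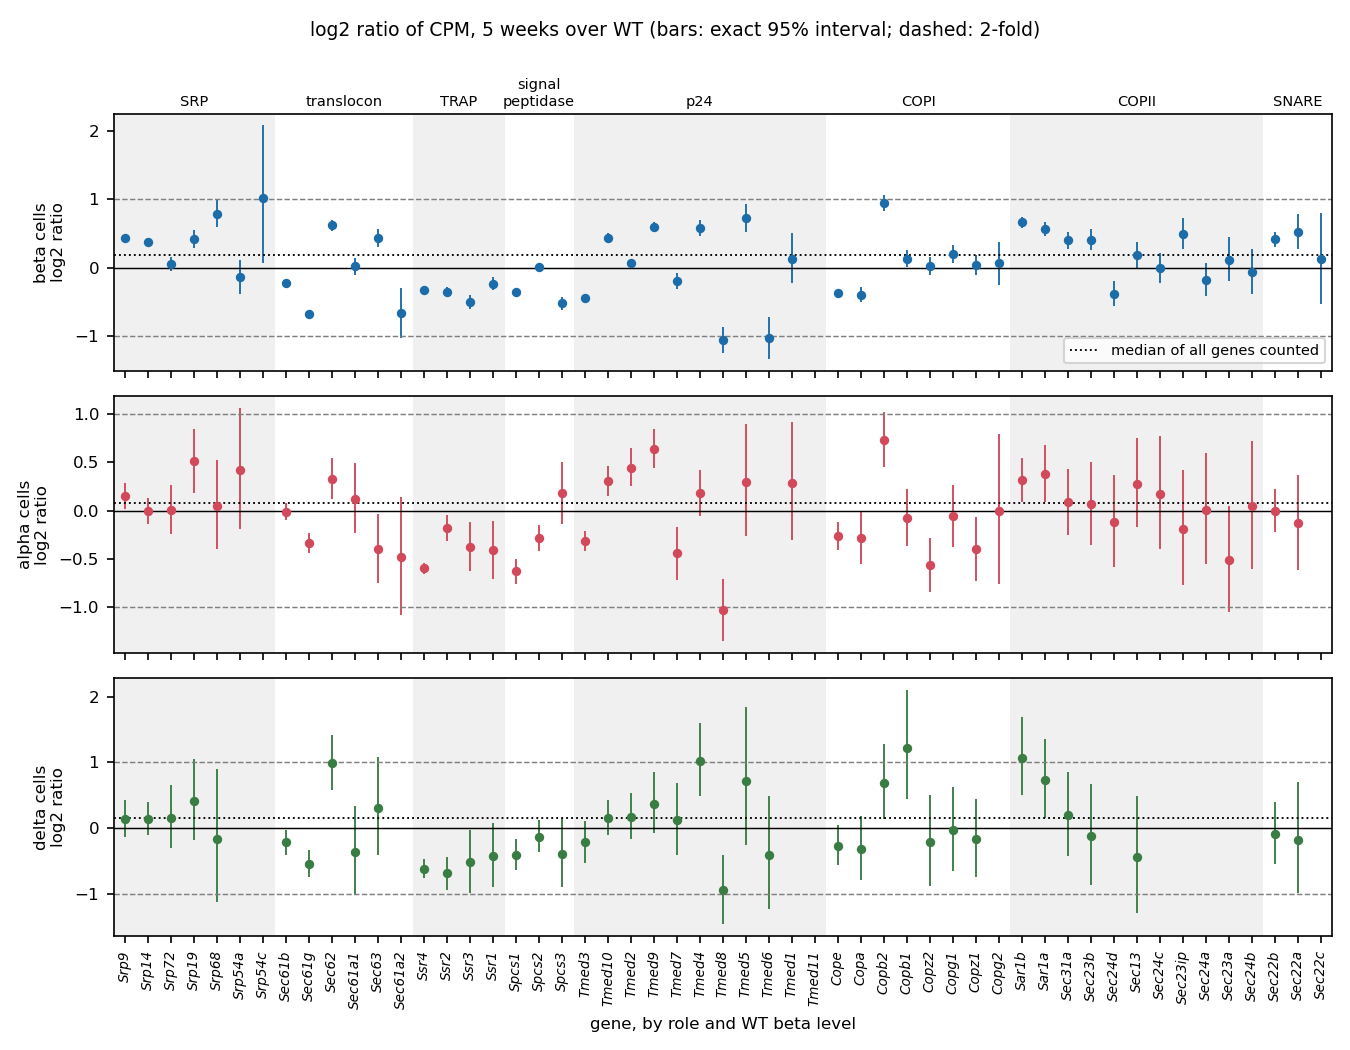
Log2 ratio of the level at 5 weeks over WT for each counted member except *Ssrp1*, in beta, alpha and delta cells, grouped by role. Bars are exact conditional 95% intervals, with dashed lines at 2-fold and a dotted line at the median of all genes. The TRAP genes lie below 0 in all 3 classes, and most members lie between the dashed lines.

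The members past 2-fold in beta cells were *Tmed8*, *Tmed6* and *Srp54c*. *Tmed8* was at 31.1 CPM (510 UMIs) in WT against 14.98 CPM (444) at 5 weeks, with a log2 ratio of −1.05 (−1.24 to −0.87). It was also lower in alpha cells, at 59.9 and 29.2 CPM (−1.03, −1.36 to −0.71), and was at 112 and 58.0 CPM in delta cells. *Tmed6* was at 11.5 CPM (188 UMIs) against 5.64 CPM (167), with a log2 ratio of −1.03 (−1.33 to −0.72). With the profile of WT acinar cells subtracted from the WT classes this ratio was −0.76. *Srp54c* was at 0.732 CPM (12 UMIs) against 1.48 CPM (44), with a log2 ratio of 1.02 (0.07 to 2.08), and it passed 2-fold under 5 of 10 other settings. In beta cells *Tmed8* did so under 11 of 14 other settings (−1.24 to −0.95) and *Tmed6* under 10 of 14, and in alpha cells *Tmed8* under 11 of 13 (−2.65 to −0.95).

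The TRAP and signal peptidase genes were mostly below WT at 5 weeks. *Ssr4* was at 951 CPM in WT against 761 CPM at 5 weeks (−0.32, −0.35 to −0.29), *Ssr3* at 94.2 and 66.6 CPM (−0.50), *Ssr2* at 231 and 181 CPM (−0.35) and *Ssr1* at 82.5 and 70.2 CPM (−0.23). All 4 intervals lay below 0, and the median was −0.34 against 0.18 over all genes. The TRAP median was −0.39 in alpha and −0.57 in delta cells, against 0.08 and 0.15 over all genes. *Spcs1* was at 376 and 293 CPM (−0.36) and *Spcs3* at 110.2 and 76.7 CPM (−0.52), whereas the ratio of *Spcs2*, at 361 and 365 CPM, was 0.01 (−0.03 to 0.06). With the WT acinar profile subtracted the TRAP medians were −0.34, −0.39 and −0.60 in beta, alpha and delta cells.

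Most SRP genes were above WT in beta cells at 5 weeks. *Srp9* was at 294 CPM in WT against 397 CPM at 5 weeks (0.44, 0.39 to 0.48), *Srp14* at 233 and 302 CPM (0.37), *Srp19* at 43.0 and 57.2 CPM (0.41) and *Srp68* at 18.4 and 31.8 CPM (0.79, 0.60 to 0.98). The intervals of 5 of the 7 SRP genes lay above 0. *Srp72* was at 0.06 (−0.04 to 0.16) and *Srp54a* at −0.13 (−0.38 to 0.11). The SRP median was 0.41 against 0.18 over all genes, whereas in alpha and delta cells it was 0.10 and 0.14, near the medians of all genes there, 0.08 and 0.15.

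The translocon was divided at 5 weeks in beta cells. The small subunits were lower, *Sec61b* at 773 and 662 CPM (−0.22) and *Sec61g* at 556 and 348 CPM (−0.67, −0.71 to −0.63). The accessory subunits were higher, *Sec62* at 99.4 and 153 CPM (0.62, 0.54 to 0.70) and *Sec63* at 41.5 and 55.9 CPM (0.43). Of the alpha subunits *Sec61a1* was at 52.8 and 53.4 CPM, with a log2 ratio of 0.02 (−0.10 to 0.14), and *Sec61a2* at 7.38 and 4.66 CPM (−0.66, −1.03 to −0.30). Under all 14 other settings *Sec61g* stayed below 0, between −0.86 and −0.60, and *Sec62* above, between 0.43 and 0.65. The summed level of the translocon was 1529 CPM in WT against 1277 CPM at 5 weeks.

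Among coat genes *Copb2*, one of the 4 with the UPRE core, came nearest to 2-fold in beta cells at 5 weeks, at 47.4 CPM in WT and 91.5 CPM (0.95, 0.83 to 1.07), and its ratio lay between 0.76 and 1.08 under the other settings. The others with that core had log2 ratios of 0.13 (*Copb1*), 0.12 (*Sec23a*) and −0.38 (*Sec24d*). Both Sar1 genes were higher, *Sar1b* at 101 and 160 CPM (0.66, 0.58 to 0.74) and *Sar1a* at 69.2 and 102 CPM (0.57), and *Copa* and *Cope* were lower at −0.39 and −0.38. The medians of the COPI, COPII and p24 groups, 0.05, 0.18 and 0.10, were all near that of all genes, and those of COPI and p24 fell below 0 once all ratios were centred on the median of all genes. *Sec22b* was at 59.7 and 79.5 CPM (0.41, 0.31 to 0.52). *Tmed9* and *Tmed4* were at 0.59 and 0.58 and *Tmed3* at −0.44 (−0.50 to −0.38).

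In alpha and delta cells at 5 weeks most members were also within 2-fold of WT. In alpha cells 0 of 50 members were 2-fold higher and 1, *Tmed8*, lower, where 4.89% of 7996 genes were higher and 1.28% lower, and 45 of the 50 (90%) were within 1.5-fold against 77.8% of all genes. In delta cells 3 of 41 were higher and 0 lower, where 7.54% of 4429 genes were higher and 1.4% lower, and 31 of the 41 (75.6%) were within 1.5-fold against 73.1% of all genes. *Copb1* was at 34.2 CPM (15 UMIs) and 79.8 CPM (128) in delta cells, with a log2 ratio of 1.22 (0.45 to 2.10). *Sar1b* and *Tmed4* had log2 ratios of 1.07 and 1.02 from 28 and 32 WT UMIs. Of these 3 only *Copb1* stayed past 2-fold in delta cells when ratios were centred. *Tmed8*, at −0.95 before centring, was then past 2-fold lower.

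At 1 week the picture in beta cells depended on the scale. In CPM 14 of 53 members were at least 2-fold higher than in WT and 2 at least 2-fold lower, where 56.5% of 10440 genes were higher and 2.85% lower. The median of the members was 0.67 and that of all genes 1.13. Hormone transcripts made up 42.8% of beta cell UMIs at 1 week against 68.0% in WT, which raises the CPM of every other gene. The beta class began at an *Ins2* share of 5% at 1 week and of 20% in WT, so the class rule differed between these shares. The WT cells held at most 1489 genes each, while the median 1-week beta cell held 4731. The part of these selections in the hormone shares was not tested. With the hormone transcripts left out of the total, 2 members were higher and 13 lower, where 16.9% of genes were higher and 8.18% lower. With ratios centred on the median of all genes, 2 were higher and 14 lower, where 8.87% and 12.3% of genes were. Leaving out the hormones moved all ratios by −0.84 and centring by −1.13.

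**Figure D2:**
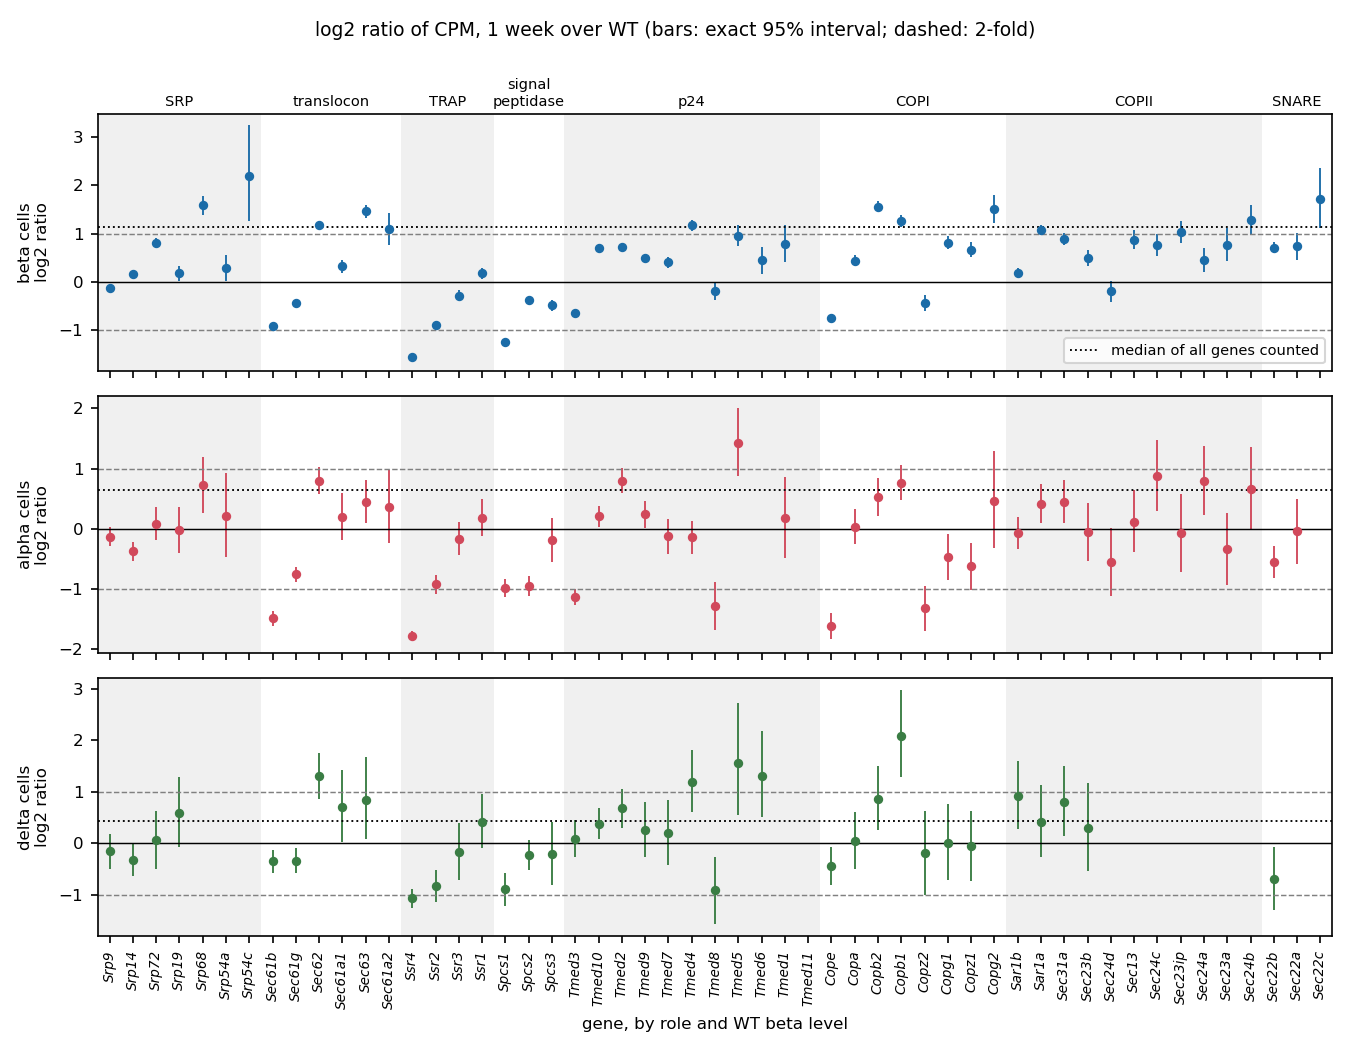
Log2 ratio of the level at 1 week over WT for each counted member except *Ssrp1*, in beta, alpha and delta cells, grouped by role. Bars are exact conditional 95% intervals, with dashed lines at 2-fold and a dotted line at the median of all genes. *Ssr4* lies below the lower line in each class, at −1.54, −1.78 and −1.07.

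Several of the most abundant members, small membrane subunits among them, were lower at 1 week on each scale tried. *Ssr4* was at 951 CPM (15595 UMIs) in WT beta cells against 326 CPM (4897) at 1 week, with a log2 ratio of −1.54 (−1.59 to −1.497). It was at 1562 and 453 CPM in alpha cells (−1.78, −1.87 to −1.70) and at 1352 and 643 CPM in delta cells (−1.07, −1.26 to −0.89). *Spcs1* was at 376 CPM in WT beta cells against 159 CPM at 1 week, with a log2 ratio of −1.24 (−1.31 to −1.18). Both passed 2-fold in beta cells under all 12 other settings. *Sec61b* was at 773 and 411 CPM (−0.91), *Ssr2* at 231 and 125 CPM (−0.89), *Cope* at 247 and 148 CPM (−0.74) and *Tmed3* at 232 and 149.5 CPM (−0.64), and these 4 were below 0 under all 12 other settings too. The medians of TRAP and signal peptidase were −0.58 and −0.48, the only role medians below 0 in CPM.

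*Ssr4* was the only X-linked member, and the WT library carried *Xist*. The median log2 ratio at 1 week in beta cells was 0.76 over 347 X-linked genes and 1.15 over 9735 autosomal genes, and 2.59% of the X-linked genes were at or below *Ssr4*. At 5 weeks the medians were −0.01 and 0.19, and 30.4% of X-linked genes were at or below it. Short transcripts were also lower than long ones. The 10 members under 1 kb had a median of −0.44 at 1 week in beta cells against 0.60 to 0.83 in the longer bins, while over all genes the medians were 0.79 under 1 kb and 1.13 to 1.24 above. With ratios centred within 10 bins of transcript length, 0 members were higher and 13 lower, where 8.58% and 11.4% of genes were. *Ssr4* stayed past 2-fold lower in beta cells under this centring. Beyond that, the part of transcript length in the values of *Ssr4* was not tested, nor was that of sex chromosomes.

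The members higher in CPM at 1 week in beta cells came from most roles. *Copb2* was at 47.4 CPM in WT against 139 CPM at 1 week (1.55, 1.43 to 1.68), *Copb1* at 47.0 and 112 CPM (1.25) and *Copg2* at 8.05 and 22.8 CPM (1.501). *Sec63* was at 41.5 and 114 CPM (1.46, 1.33 to 1.59), *Sec62* at 99.4 and 224 CPM (1.17) and *Sec61a2* at 7.38 and 15.7 CPM (1.09). The other members with the UPRE core, *Sec23a* and *Sec24d*, had log2 ratios of 0.77 and −0.19. *Srp68* was at 18.4 and 55.1 CPM (1.58), and *Sec22c* at 1.89 and 6.20 CPM (1.71, 1.11 to 2.35). Among COPII genes *Sar1a* was at 69.2 and 146 CPM (1.08, 0.97 to 1.18), *Sec24b* at 7.57 and 18.3 CPM (1.27, 0.96 to 1.59) and *Sec23ip*, a Sec23-binding protein of ER exit sites, at 14.5 and 29.7 CPM (1.03, 0.80 to 1.27). The p24 gene *Tmed4* was at 51.4 and 115 CPM (1.17, 1.05 to 1.29). *Srp54c* was at 0.732 and 3.33 CPM (2.19, 1.26 to 3.23). *Ssrp1*, the chromatin protein, was at 19.4 and 88.0 CPM (2.18, 2.00 to 2.36). Once the hormone transcripts were left out only *Srp54c* and *Ssrp1* stayed past 2-fold, at 1.35 and 1.34.

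In alpha cells at 1 week 2 of 50 members were higher and 6 lower, where 33.0% of 7655 genes were higher and 5.09% lower. The 6 were *Ssr4*, *Cope* (240.3 and 78.7 CPM, −1.61), *Sec61b* (628 and 224 CPM, −1.49), *Copz2* (−1.32), *Tmed8* (−1.28) and *Tmed3* (473 and 216 CPM, −1.13), and the 2 were *Ssrp1* (1.89) and *Tmed5* (1.42). Without the hormone transcripts 1 was higher and 11 lower, where 18.1% and 9.58% of genes were, and with centring 1 and 15, where 12.5% and 13.8% were. The members summed to 6791 CPM in WT alpha cells and 4468 CPM at 1 week. The 1-week alpha class held 172 cells, with a median of 21635.5 UMIs against 765 in WT.

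In delta cells at 1 week, from 37 cells, 6 of 38 members were higher and 1, *Ssr4*, lower, where 22.7% of 2849 genes were higher and 4.0% lower. *Copb1* was at 34.2 CPM (15 UMIs) against 145 CPM (90), with a log2 ratio of 2.08 (1.28 to 2.98), and *Tmed6* at 38.8 and 96.5 CPM (1.32, 0.52 to 2.19). *Ssrp1*, *Tmed5*, *Sec62* and *Tmed4* had log2 ratios between 1.20 and 1.63. The median member ratio was 0.15 against 0.44 for all genes.

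The split of reads between paralogues of one subunit does not depend on how the libraries are scaled. In WT beta cells *Sar1a* made up 40.7% (38.8 to 42.5, exact binomial 95% interval) of Sar1 UMIs. At 1 week its share was 56.0% (54.4 to 57.6), and at 5 weeks it was 39.1% (38.0 to 40.2). *Copz1* made up 43.3% (40.6 to 46.1) of Copz UMIs in WT, and its share was 62.2% (59.5 to 64.8) in the 1-week and 43.6% (41.6 to 45.6) in the 5-week library. In both families the 1-week share stood apart while the 5-week interval overlapped that of WT. The paralogue with a higher share at 1 week than in WT had the longer transcripts in both. *Sar1a* had a median length of 2611 bases against 1201 for *Sar1b*, and *Copz1* 2052 against 581 for *Copz2*. In the Sec61a family, given below, it was the shorter one, *Sec61a2* (2110 against 3150 bases). The part of transcript length in these shares was not tested. In alpha cells *Sar1a* was at 37.7%, 45.9% and 38.7% and *Copz1* at 41.5%, 53.5% and 44.3% in the same order. The alpha intervals of WT and 1 week overlapped in both families, at 32.5 to 43.1% and 41.7 to 50.1% for *Sar1a* and at 35.8 to 47.5% and 46.6 to 60.2% for *Copz1*, and those of the 3 conditions overlapped in delta cells.

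**Figure D3:**
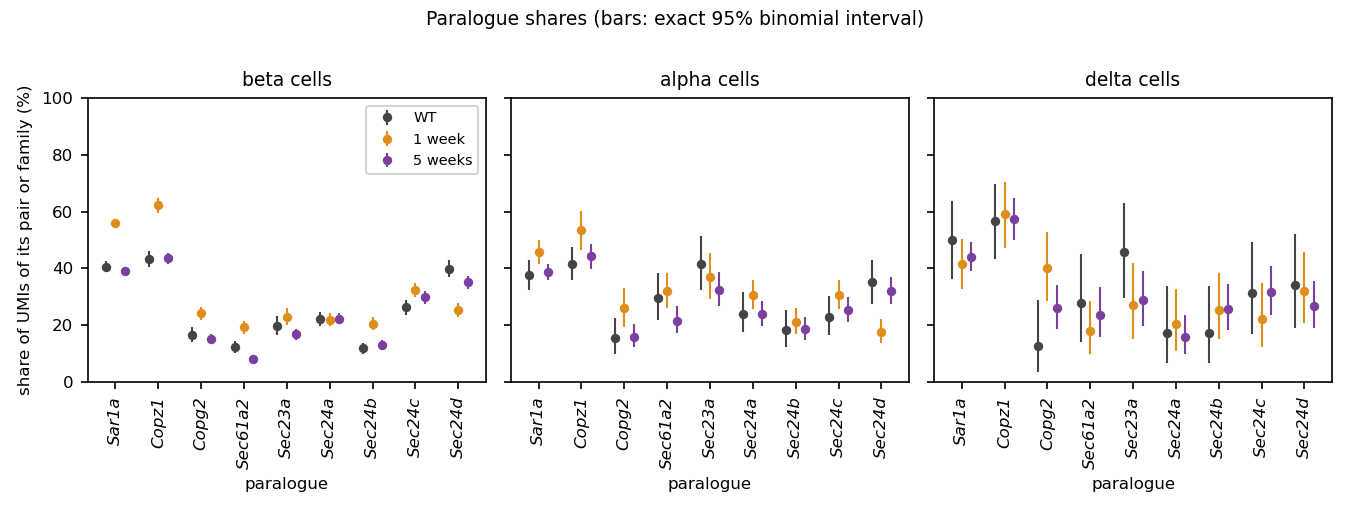
Share of a paralogue among the summed UMIs of its family in beta, alpha and delta cells of each library, in percent, with exact binomial 95% intervals as bars. In beta cells the 1-week shares of *Sar1a* (56.0%) and *Copz1* (62.2%) lie above those of WT (40.7% and 43.3%) and 5 weeks (39.1% and 43.6%).

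The Sec24 genes, whose products pick COPII cargo, also stood apart most at 1 week in beta cells. *Sec24d* made up 39.9% (36.9 to 43.0) of Sec24 UMIs in WT, against 25.2% (22.9 to 27.7) at 1 week and 35.1% (32.8 to 37.4) in the 5-week cells. *Sec24b* was at 11.8%, 20.6% and 12.9%, and *Sec24a* at 22.1%, 21.9% and 22.3%. *Copg2* made up 16.5% of Copg UMIs in WT, 24.2% at 1 week and 15.2% at 5 weeks. *Sec61a2* made up 12.3% (10.3 to 14.5) of Sec61a UMIs in WT, against 19.2% (17.0 to 21.5) at 1 week and 8.02% (6.78 to 9.41) in the 5-week cells, 3 intervals that did not overlap. *Sec23a* made up 19.7% of Sec23 UMIs in WT beta cells against 41.7% in WT alpha cells, a wider gap than that between the conditions in beta cells, where it was at 22.9% at 1 week and 16.7% at 5 weeks.

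The 1-week beta cells differed widely in *Ddit3* (CHOP), a transcription factor of the stress responses, at 1940 CPM in the class against 44.4 CPM in WT. The 562 cells were ordered by the *Ddit3* CPM of each cell and cut into 4 groups of 140 or 141 cells. From the lowest to the highest group *Ddit3* was at 61.5, 801, 2141 and 5676 CPM, and the members together were at 4085, 5604, 6557 and 7597 CPM. *Ins2* made up 51.1%, 38.0%, 29.9% and 22.4% of UMIs in the same order. With the hormone transcripts left out of the total the members were at 10589, 10154, 9947 and 10103 CPM, so the log2 ratio of the highest over the lowest group was 0.89 in CPM and −0.068 without hormones. The median mitochondrial share was 4.12% in the lowest group and 1.51% in the highest.

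**Figure D4:**
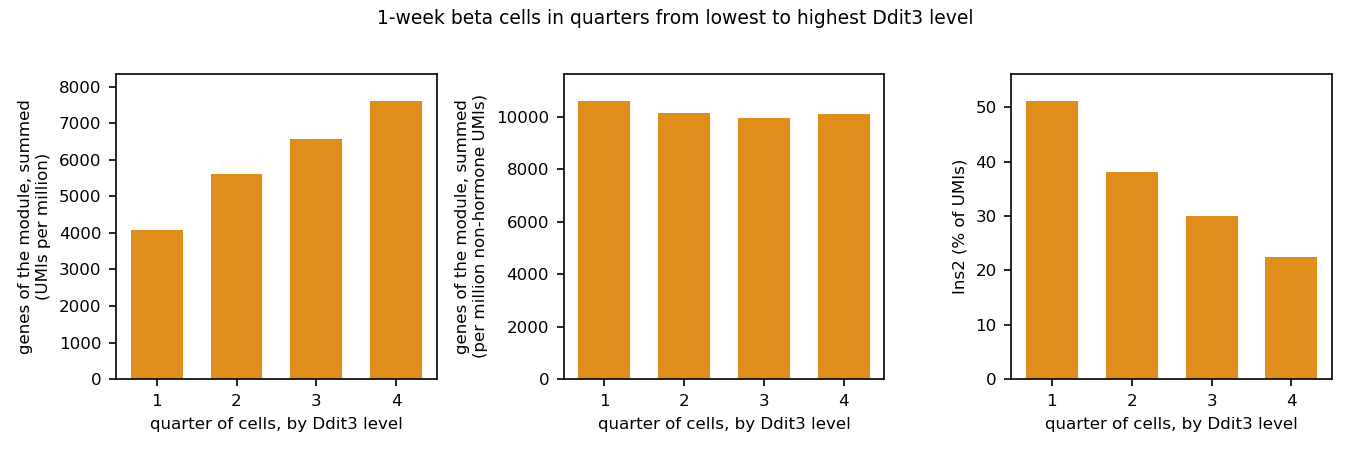
Bars for the 1-week beta cells in 4 groups from lowest to highest *Ddit3* (horizontal axis), showing the summed level of the members in CPM, the same per 1000000 non-hormone UMIs, and the share of *Ins2* in percent of UMIs. The CPM goes from 4085 to 7597, whereas the level without hormones lies between 9947 and 10589 in all 4 groups and *Ins2* goes from 51.1% to 22.4%.

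Gene by gene, 19 of 51 members were at least 2-fold higher in the highest than in the lowest *Ddit3* group and 0 lower, where 48.2% of 7988 genes were higher and 1.54% lower. *Sar1a* was at 66.1 CPM in the lowest and 274 CPM in the highest group (2.05, 1.85 to 2.25), *Tmed1* at 3.22 and 17.3 CPM (2.43, 1.56 to 3.39), *Srp9* at 130.4 and 413 CPM (1.66) and *Sec22b* at 52.4 and 164 CPM (1.65). *Sec31a*, the outer COPII coat subunit, was at 89.8 and 73.1 CPM (−0.30, −0.54 to −0.06) and *Sec61a1* at 62.5 and 58.6 CPM (−0.09). Without the hormone transcripts *Sar1a* (1.09) and *Tmed1* (1.47) were past 2-fold upward and *Sec31a* (−1.26), *Sec61a1* (−1.05) and *Tmed8* (−1.004) downward, where 6.77% and 8.85% of genes were. The order of the cells and the members' CPM share the total of each cell, and all cells came from 1 library.

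A second reading of ER stress was taken from *Herpud1* with each beta cell thinned to 1000 UMIs. At 5 weeks 2149 cells with and 3557 without a *Herpud1* UMI had 6082 CPM (5979 to 6188) and 6054 CPM (5973 to 6135) of the members, intervals that overlapped, while *Hspa5* was at 1990 and 1261 CPM. In WT the members were at 6326 CPM (6157 to 6499) in 834 cells with and 6165 CPM (6107 to 6223) in 7060 without one. At 1 week they were at 6747 CPM (6358 to 7154) in 166 cells with and 6015 CPM (5776 to 6262) in 396 without one, intervals that did not overlap. Hormone transcripts stayed in the totals of these levels. Unlike for the *Ddit3* groups, no reading without them was made, so their part in this difference was not tested. Thinning left out 511 WT and 218 5-week beta cells as too shallow.

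Beyond the 54 genes, 108 symbols of the same route were listed by function, synonyms included: SRP receptor, catalytic signal peptidase subunits, translocon partners, oligosaccharyltransferase, EMC insertase, tail-anchor insertion, ER exit sites, cargo receptors, ARF GTPases, and ER to Golgi SNAREs and tethers. In beta cells at 5 weeks 1 of 98 counted was at least 2-fold higher and 0 lower, where 7.72% and 4.81% of all genes were, with a median of 0.25 against 0.18. The 1 was *Nomo1*, a translocon partner, at 5.55 CPM in WT and 11.3 CPM (1.03, 0.69 to 1.38). At the other end were *Sec16b*, an organiser of ER exit sites, at 7.63 and 4.22 CPM (−0.85), and *Stt3a*, the catalytic subunit of oligosaccharyltransferase, at 68.8 and 39.0 CPM (−0.82, −0.94 to −0.70). *Gbf1*, which activates Arf1 for COPI assembly, was at 18.6 and 33.6 CPM (0.85, 0.67 to 1.04), and *Kdelr3*, a receptor that returns ER proteins, at 1.34 and 2.53 CPM (0.92) from 22 WT UMIs.

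The remaining lists lay between these values in beta cells at 5 weeks. *Serp1*, a translocon partner of the stress response, was at 185 and 131 CPM (−0.49), and the signal peptidase catalytic subunits *Sec11a* and *Sec11c* had log2 ratios of −0.08 and 0.07. The SRP receptor genes *Srprb* and *Srpr* were at −0.02 and 0.33. The highest oligosaccharyltransferase gene was *Rpn1* (0.36) and the highest gene of ER exit sites *Mia3* (0.63), and the lowest cargo receptor was *Ergic1* (−0.32) and the lowest ARF gene *Arf5* (−0.40). The EMC genes ran from 0.01 (*Emc10*) to 0.40 (*Emc7*), tail-anchor insertion from −0.20 (*Ubl4a*) to 0.59 (*Get4*), and the SNAREs and tethers from −0.40 (*Rab1a*) to 0.69 (*Gosr1*). The COPI delta subunit *Arcn1*, whose symbol the rule does not reach, was at 33.4 and 48.3 CPM (0.53) and at 97.5 CPM at 1 week. In beta cells at 1 week 35 of 97 listed genes were 2-fold higher and 0 lower, where 56.5% and 2.85% of all genes were, with a median of 0.82 against 1.13 over all genes. The highest was *Ccdc47* of the translocon partners, at 21.4 CPM in WT and 184 CPM (3.11, 2.95 to 3.27). In alpha cells 1 of 95 was higher and 0 lower at 5 weeks (4.89% and 1.28% of all genes), and 12 of 93 higher and 2 lower at 1 week (33.0% and 5.09%). In delta cells the counts were 4 and 1 of 76 at 5 weeks (7.54% and 1.4%), and 7 and 0 of 56 at 1 week (22.7% and 4.0%).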

How the data were processed

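Single-cell libraries from islets of 1 WT and 2 mutant conditions were analysed from the deposited raw counts, which the authors made as UMIs per gene and barcode on mm10. The submitters' processing notes name bcl2fastq 2.17.1.14, Cell Ranger 3.1 and Seurat 3.1.4. Per the study's methods, cells with several hormones and doublets were removed from WT, which was scaled down to 12000 cells. No doublet caller was run here, and the 3, 4 and 370 cells of WT, 1 week and 5 weeks past more than 1 hormone limit were left out. In the same order 159, 1520 and 614 cells fell in no class. In WT and at 5 weeks these were past no hormone limit. Of the 1520 at 1 week only 105 reached the minimum of 5000 UMIs and were past no limit. The rest were left out for depth, whatever their hormone share.

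UMIs were summed per library and class with Python 3.11.15, numpy 2.4.6, scipy 1.17.1 and pandas 2.3.3. A gene counted as higher or lower at a log2 ratio of CPM of 1 or −1, for genes whose summed UMIs in the pair of classes reached 50. A ratio against 0 UMIs used a floor of 3 UMIs. There was no test across samples, and p-values were not computed. Depth sets the precision, which the Poisson intervals give for counting error alone.

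Members and lists were chosen with earlier results of these data known. In full are given the highest and lowest member of each role in WT beta cells and each member past 2-fold in beta cells, and of each further list the genes at either end. Members named beyond this, among them those with the UPRE core, were chosen after their values were seen. Alternatives were CPM without the 8 hormone transcripts (*Ttr* among them), centring, UMI minimums, cell filters, cell weights, thinning and class limits. Centring by transcript length, deeper cells and subtraction of WT acinar cells were chosen after seeing the data. *Tmed11* was not counted in beta cells, 4 members in alpha cells, and 13 (5 weeks) or 16 (1 week) in delta cells, for low counts.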

Additional observations from a re-analysis of the deposited data

How the results depend on the processing

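No paired analysis was possible because each condition had 1 library. Counts are of members past 2-fold, higher then lower, and the cause of a change was not tested except where a setting leaves out genes or cells. In beta cells at 5 weeks 1 was higher and 2 lower. The count higher was 0 without hormones, with centring, with centring by length, with a minimum of 200 UMIs and with the 1-week limits, and 2 with the mean over cells. The count lower was 1 with the mean over cells and with mixed cells kept, and 0 with thinning. With the study's gene and mitochondrial limits, with cells of 2000 or more UMIs, and with acinar subtraction it was 0 higher and 1 lower. In alpha cells at 5 weeks (0 and 1) it was 0 lower without hormones, 2 lower at 20 UMIs, 1 and 3 with no UMI minimum, 2 and 0 with thinning, and 1 and 2 with the 1-week limits. In delta cells at 5 weeks (3 and 0) it was 1 and 1 with either centring, and the count lower was 1 at 20 UMIs, with thinning or with acinar subtraction, 4 with no minimum, 2 with mixed cells kept and 3 with the 1-week limits. At 1 week in beta cells (14 and 2) it was 2 and 13 without hormones, 2 and 14 with centring, and 0 and 13 with centring by length. In alpha cells (2 and 6) it was 1 and 11, 1 and 15, and 1 and 14 in that order, and the count higher was 1 at 200 UMIs and 0 with thinning. In delta cells (6 and 1) the count lower was 4 without hormones and 2 with no minimum, it was 3 and 5 with either centring, and the count higher was 1 at 200 UMIs and 0 with thinning. The member ratio from the lowest to the highest *Ddit3* group went from 0.89 to −0.068 without hormones. The other 93 values for counts were close to those reported. Of the values for member medians and paralogue shares, 12 moved and 314 stayed close. In beta cells at 1 week all ratios, and so the member median of 0.67, moved by −0.84 without hormones and by −1.13 with centring. The TRAP median at 5 weeks in beta cells stayed between −0.52 and −0.32, all 4 genes below 0 under each setting run. Cells of 2000 or more UMIs were not compared for alpha and delta cells, since WT had under 50.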
